A study of Mus musculus with 8 samples.

Results

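The genes described here are 10 core components and direct outputs of the circadian clock, measured in whole kidney: Arntl (newer symbol Bmal1), Clock, Per1, Per2, Per3, Cry1, Cry2, Nr1d1, Dbp and Tef. They were chosen by name, out of 19936 genes tested, and each was read by the probe set that names it alone; all 10 had exactly 1 such probe set. RNA came from kidneys of female mice of a mixed C57BL/6 - SV127 background, 1 array for each mouse. By the labels 4 arrays are of the genotype Pax8-rtTA;LC-1;Vhl-floxed (labelled mutant) and 4 of littermates (labelled control). The Pax8 promoter drives the doxycycline-dependent activator rtTA in tubule epithelium, and the LC-1 transgene supplies the Cre it switches on, so vessels and interstitium are not the target. The labels do not say which of these alleles the controls carried. Doxycycline (0.2 mg/ml, in water with 5% sucrose) was given to both groups for 2 weeks starting at the age of 3 weeks. A washout of 1 week followed, and kidneys were taken at 6 weeks. The labels do not give the hour of the day at which each mouse was killed.

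The circadian clock is a transcriptional loop that runs in nearly every cell. ARNTL and CLOCK bind E-boxes in DNA and switch on the Per and Cry genes, whose proteins return to the nucleus and block ARNTL and CLOCK. The nuclear receptor NR1D1 (REV-ERB alpha), itself under E-box control, represses Arntl, so transcripts of Arntl and Nr1d1 peak at opposite times of day. DBP and TEF are related leucine zipper activators whose rhythmic transcripts carry the clock to output genes through D-box sites, and NFIL3 competes for the same sites. In kidney the clock is known for daily rhythms in the transport of sodium, water and drugs.

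Promoter stretches are printed here of Dbp, Tef, Nr1d1 and Cry1, the genes that passed the test with or without array numbers as blocks. That of Per3 is added as a carrier of D-boxes. The stretches show motifs just before the starts, and that of Dbp holds no clock motif. They come from RefSeq, build GRCm38.p6, and run 5′ to 3′ on the strand of the gene. Capitals mark the E-box CACGTG in Tef and Cry1, the related box CACGTT (read here as its reverse complement AACGTG) in Nr1d1 and Cry1, the D-box TTANGTAA in Per3, and the core ACGTG of a hypoxia-inducible factor (HIF) site in Dbp.
Dbp, chr7:45704997-45705076, plus strand: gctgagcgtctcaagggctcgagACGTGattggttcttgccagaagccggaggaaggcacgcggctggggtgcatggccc
Tef, upstream start, chr15:81802503-81802592, plus strand: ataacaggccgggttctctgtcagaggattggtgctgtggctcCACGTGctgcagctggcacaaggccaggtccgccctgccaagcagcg
Tef, downstream start, chr15:81811234-81811323, plus strand: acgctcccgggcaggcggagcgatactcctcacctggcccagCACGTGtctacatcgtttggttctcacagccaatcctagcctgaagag
Nr1d1, chr11:98775378-98775457, minus strand: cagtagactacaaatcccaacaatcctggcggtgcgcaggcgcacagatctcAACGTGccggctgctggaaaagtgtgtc
Cry1, chr10:85185085-85185164, minus strand: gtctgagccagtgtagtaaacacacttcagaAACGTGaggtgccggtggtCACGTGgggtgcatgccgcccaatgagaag
Per3, chr4:151044796-151044885, minus strand: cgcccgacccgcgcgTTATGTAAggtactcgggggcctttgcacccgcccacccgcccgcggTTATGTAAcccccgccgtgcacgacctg

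In windows of 250 bases before to 50 bases after a start, on both strands, 9 of the 10 genes had an entry, with 14 windows in all. Per2 had no entry and was not scanned, so nothing is known here of its motifs. The counts below are of genes with a match in any of their windows, while the percentages are of single windows. The measures are thus unlike, and a gene with several windows could match more easily. The E-box CACGTG was present for 3 genes, Per1, Cry1 and Tef, and in 7.15% of all 32851 RefSeq windows of this length. In Tef it preceded both starts, at bases -127 to -122 of the upstream start and -138 to -133 of the downstream start. CACGTT was present for 3 genes, Cry1, Cry2 and Nr1d1, against 4.69% of all windows. In Cry1 the CACGTT match, at -79 to -74, lay just before the E-box at -60 to -55. The D-box TTANGTAA was present for 1 gene, Per3, where it occurred at -205 to -198 and at -158 to -151, and in 2.32% of all windows. The nuclear receptor core AGGTCA was present for 3 genes, Arntl, Clock and Per1, against 16.3% of all windows. ACGTG, which lies inside both CACGTG and the reverse complement of CACGTT, was present for 6 genes against 19.6% of all windows, and Dbp was the only 1 of the 6 with ACGTG outside such a box. A match is a description of the letters and not a measured site.

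The arrays were similar in overall level, with medians from 7.55 to 7.58 on the log2 scale. Mutant arrays 1 and 2 stood apart on the first principal component over all probe sets (35.3% of the variance), at -34.5 and -34.4 against 1.03 and -4.58 for mutant arrays 3 and 4 and 11.9 to 29.1 for the control arrays. Kidney identity was read from Umod and Slc12a1 of the thick ascending limb, which were at 12.4 to 13.8 on every array. The adrenal genes Cyp11b1 and Cyp11b2, whose tissue lies beside the kidney and has its own strong rhythm, were at 5.80 to 7.07. Alb of hepatocytes read 7.67, 9.70, 11.42 and 10.11 on mutant arrays 1 to 4 and 10.06 to 10.93 on the control arrays. Ptprc of leukocytes read 8.26, 8.27, 7.39 and 7.31, and 7.82 to 8.20. Slc5a2 of the proximal tubule read 10.44, 10.87, 11.34 and 11.35, and 10.52 to 10.70. Slc34a1 and Lrp2, also of the proximal tubule, stayed at 13.3 to 13.8 on every array. The part of this spread in the clock gene values was not tested. Vhl, the targeted gene, read 8.25 to 8.46 on the mutant arrays and 7.96 to 8.22 on the control arrays, so the mutant arrays were all above the control arrays. The difference of 0.29 on the log2 scale passed the test (limma adjusted p = 0.0387) and missed it with the block (0.0558). Whether its probe set covers the deleted part is not known here. Of 10 HIF target genes, which loss of Vhl should raise, 9 were lower and 0 higher in the arrays labelled mutant at a limma adjusted p under 0.05, led by Egln3 at 8.82 ± 0.229 against 11.8 ± 0.197 (SD, n = 4 each). At an unadjusted p under 0.05 the counts were 10 and 0, against 2193 and 2158 of all 19936 genes. At the adjusted threshold 4.64% of all genes were lower and 2.59% higher. The HIF targets thus ran against the group labels, and whether the labels are exchanged between the groups was not tested. Below, mutant and control arrays are the arrays so labelled, and directions are not directions of Vhl loss.

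Dbp and Tef, the output activators, were the clock genes that rose in the arrays labelled mutant. Dbp was 1.51-fold higher and Tef 1.30-fold higher. The other 8 genes did not pass the test, with log2 differences from -0.44 for Arntl to 0.37 for Nr1d1. Of the 10 genes 2 rose and 0 fell, where 2.59% of all genes rose and 4.64% fell. At an unadjusted p under 0.05 the counts were 2 and 2, against 2158 and 2193 of all 19936 genes. The median log2 difference of the 10 genes was 0.00 and that of all genes 0.03. With the array number as a block the count was 3 higher and 1 lower, Nr1d1 and Cry1 being added, where 3.04% of all genes rose and 5.27% fell. In whole kidney, fewer cells that hold a transcript and less of it per cell cannot be told apart.

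**Figure D1:**
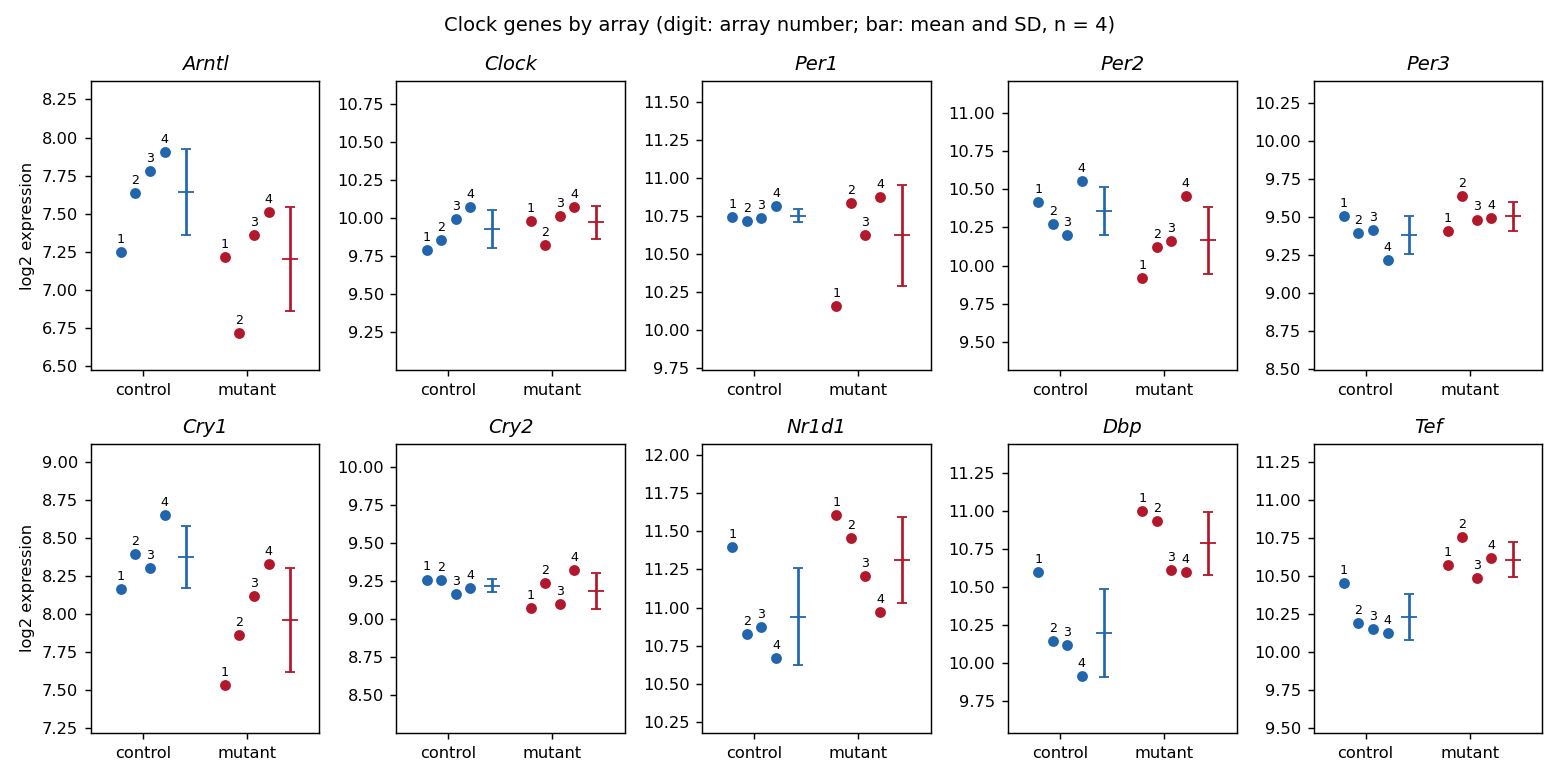
Log2 expression (y axis, each panel spanning the same range) of the 10 clock genes on each of 4 arrays labelled control (blue) and 4 labelled mutant (red), with the array number above each point and the mean ± SD beside it. Dbp and Tef have no overlap between groups, while Arntl, Cry1 and Nr1d1 overlap, with array 4 the highest of both groups for Arntl and Cry1 and the lowest of both for Nr1d1.

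Dbp, whose protein activates genes through D-boxes, read 11.00, 10.93, 10.61 and 10.60 on mutant arrays 1 to 4 and 10.60, 10.15, 10.12 and 9.92 on control arrays 1 to 4. The groups did not overlap, but only just: the lowest mutant array, number 4, exceeded the highest control array, number 1, by 0.00046. The means were 10.8 ± 0.209 and 10.2 ± 0.288 (SD, n = 4 each), a log2 difference of 0.59 (SE 0.145, limma adjusted p = 0.0375). The two-sided p of the exact permutation test was 0.0286 before any adjustment over the 10 genes, and no smaller p is possible with 4 arrays a group. With the block the SE was 0.0741 and the limma adjusted p 0.00697. Each mutant array exceeded the control array of its own number, by 0.40, 0.79, 0.49 and 0.68. Leaving out mutant array 1 or 2, or control array 2, 3 or 4, lost the call (adjusted p between 0.0762 and 0.109 by limma), and with mutant arrays 1 and 2 both left out the log2 difference was 0.41 (limma adjusted p = 0.234).

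Tef, a close relative of Dbp, read 10.57, 10.76, 10.49 and 10.62 on mutant arrays 1 to 4 and 10.45, 10.19, 10.15 and 10.13 on control arrays 1 to 4. All 4 mutant arrays lay above all 4 control arrays, with a gap of 0.036 between mutant array 3 and control array 1. The means were 10.6 ± 0.114 and 10.2 ± 0.150 (SD, n = 4 each), a log2 difference of 0.38 (SE 0.0853, limma adjusted p = 0.0256; two-sided p = 0.0286 by exact permutation, again the smallest possible and unadjusted). The block left the SE at 0.0802 (limma adjusted p = 0.0369). Without arrays of number 2, 3 or 4 this blocked call was lost. Leaving out mutant array 2 or 4, or control array 2, 3 or 4, lost the call (adjusted p between 0.0595 and 0.0800 by limma), and the log2 difference without mutant arrays 1 and 2 was 0.32 (limma adjusted p = 0.130). Dbp and Tef were 2 of the 10 genes with no overlap between groups in the upward direction and 0 had none downward, where 6.57% and 8.20% of all genes did. Hlf, the remaining member of their family, read 11.07 ± 0.119 against 10.84 ± 0.122 (SD, n = 4 each); its log2 difference of 0.23 missed the threshold (limma adjusted p = 0.118).

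Nr1d1, the repressor of Arntl, read 11.61, 11.46, 11.21 and 10.97 on mutant arrays 1 to 4 and 11.40, 10.83, 10.87 and 10.67 on control arrays 1 to 4. The groups overlapped because control array 1 was above mutant arrays 3 and 4. The log2 difference was 0.37 (SE 0.170, limma adjusted p = 0.240). With the block the SE was 0.0754 and Nr1d1 passed (limma adjusted p = 0.0324). Its 4 same-number differences were all positive, at 0.21, 0.63, 0.33 and 0.31. The blocked call was lost without arrays of number 2, 3 or 4 (limma adjusted p from 0.0679 to 0.104), and with mutant arrays 1 and 2 left out of the fit without block the difference was 0.15 (limma adjusted p = 0.781).

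Cry1, a repressor of ARNTL and CLOCK, was lower in the arrays labelled mutant when arrays were compared by number. It read 7.53, 7.86, 8.12 and 8.33 on mutant arrays 1 to 4 and 8.16, 8.39, 8.30 and 8.65 on control arrays 1 to 4. The groups overlapped, with mutant array 4 above control arrays 1 and 3. The log2 difference was -0.42 (SE 0.161, limma adjusted p = 0.169), and Cry1 passed with the block (SE 0.0810, limma adjusted p = 0.0288). The same-number differences were -0.63, -0.53, -0.18 and -0.32. The blocked call was lost without arrays of number 1, 2 or 4 (limma adjusted p from 0.0581 to 0.133). The size depended on which mutant arrays were used: without mutant arrays 1 and 2 the difference was -0.15 (limma adjusted p = 0.651), and without mutant arrays 3 and 4 it was -0.68 (limma adjusted p = 0.0302).

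Arntl, the partner of CLOCK, read 7.22, 6.72, 7.36 and 7.51 on mutant arrays 1 to 4 and 7.25, 7.63, 7.78 and 7.91 on control arrays 1 to 4. It lay at the 39.7th percentile of all genes by mean value, the lowest of the 10, where array differences can be compressed. The log2 difference was -0.44 (SE 0.179), the most negative of the 10 genes, and it did not pass without the block (limma adjusted p = 0.186) or with it (limma adjusted p = 0.0932). The same-number differences were all negative but uneven, at -0.03, -0.91, -0.42 and -0.40. The difference passed only in the blocked fit without arrays of number 1, at -0.58 (limma adjusted p = 0.0442), among the 24 other settings at this threshold. Clock read 9.82 to 10.08 on the mutant arrays and 9.79 to 10.07 on the control arrays, and its log2 difference of 0.04 had a 95% interval from -0.13 to 0.22.

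**Figure D2:**
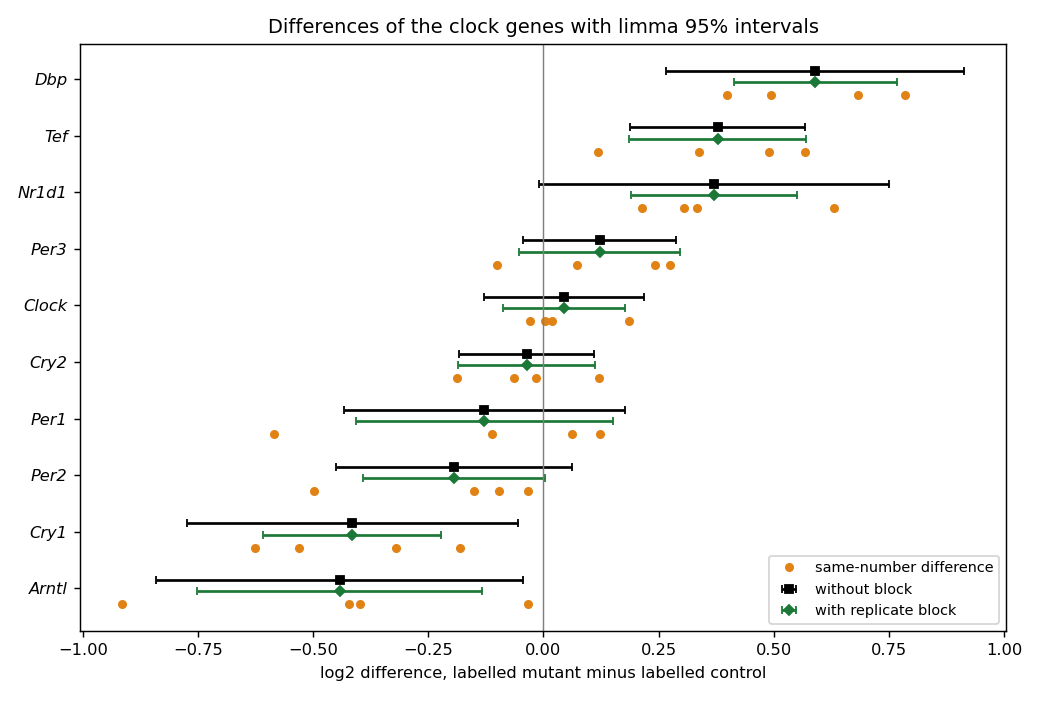
Log2 difference (x axis, labelled mutant minus labelled control) of each clock gene (y axis), with the limma 95% interval without the block (black squares) and with the array number as a block (green diamonds), and the 4 same-number differences as orange points. The block narrows the intervals of Dbp, Nr1d1 and Cry1 and leaves that of Tef about as wide.

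The period genes, which encode the partners of the CRY proteins, did not pass with or without the block. Per1 read 10.16, 10.84, 10.62 and 10.87 on mutant arrays 1 to 4 and 10.71 to 10.81 on the control arrays. Mutant array 1 was the lowest of the 8 arrays, and without it the log2 difference turned from -0.13 to 0.03. Per2 read 9.92, 10.12, 10.16 and 10.46 on mutant arrays 1 to 4 and 10.42, 10.27, 10.20 and 10.55 on control arrays 1 to 4; it was lower in each of the 4 same-number differences, which ran from -0.50 to -0.03, with a log2 difference of -0.19 (95% interval -0.45 to 0.06). Per3, whose promoter stretch above holds a pair of D-boxes, read 9.41 to 9.64 on the mutant arrays and 9.22 to 9.51 on the control arrays, a log2 difference of 0.12 (95% interval -0.04 to 0.29). Cry2, the other cryptochrome, read 9.07 to 9.33 and 9.17 to 9.26, a log2 difference of -0.04 (95% interval -0.18 to 0.11).

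Several clock genes had their highest or lowest value on the same array number in both groups. Only patterns of arrays 1 and 4 were counted over all genes. They were not among the planned comparisons, so the shares below make no allowance for the choice of pattern. Array 4 was the highest of its group in both groups for 5 of the 10 genes, Arntl, Clock, Cry1, Per1 and Per2, a pattern that 8.17% of all genes showed. Array 4 was the lowest of its group in both groups for 2 of the 10, Dbp and Nr1d1, against 9.46% of all genes. The same 2 genes also had array 1 the highest in both groups, a narrower pattern that 0.998% of all genes showed. This did not hold for every gene: array 1 was the lowest mutant array but the highest control array for Per3 and Cry2, and the block changed the SE of Tef, Per3 and Cry2 little (0.0853 to 0.0802, 0.0744 to 0.0734 and 0.0659 to 0.0621). Nfil3, the competitor at D-boxes, was on the side of Arntl and Cry1, with array 1 the lowest and array 4 the highest in both groups: it read 7.59, 7.99, 8.25 and 8.63 on mutant arrays 1 to 4 and 8.18, 8.39, 8.51 and 8.60 on control arrays 1 to 4. Its log2 difference was -0.31 (limma adjusted p = 0.381, and 0.114 with the block). Of the 10 genes 6 had the same sign in all 4 same-number differences, 3 higher (Dbp, Tef and Nr1d1) and 3 lower (Arntl, Per2 and Cry1), where 17.9% of all genes were higher in all 4 and 16.1% lower. The labels do not say what a shared number stands for. The part that the hour of killing had in the spread within groups or in the differences between them was not tested.

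**Figure D3:**
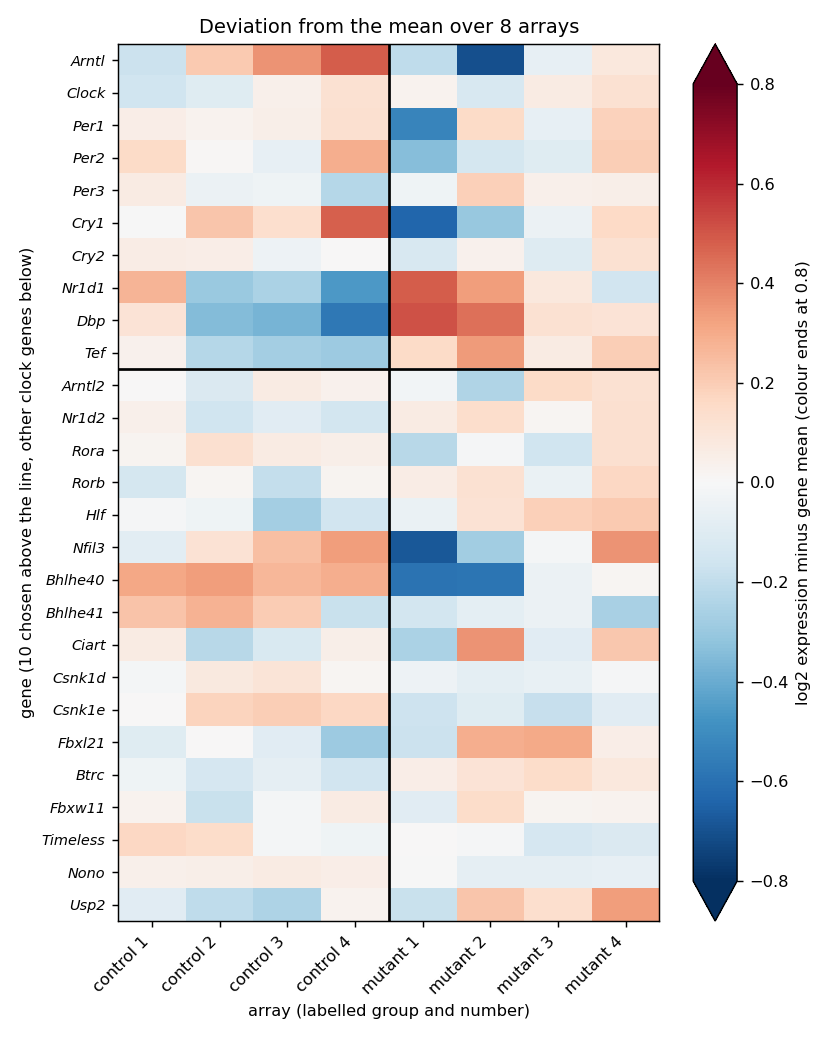
Log2 expression minus the gene's mean over 8 arrays (colour, blue below and red above the mean, ends at 0.8) for the 10 clock genes above the line and 17 other clock genes below it (y axis) on each array (x axis). Arntl, Cry1 and Nfil3 have one pattern across arrays and Dbp and Nr1d1 the opposite one, while Bhlhe40 follows the labelled groups.

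Among 17 measured other genes of the clock 1 rose and 2 fell, against 2.59% and 4.64% of all genes, and their median log2 difference was 0.01 against 0.03 for all genes. At an unadjusted p under 0.05 the counts were 4 and 4, against 2158 and 2193 of all 19936 genes. Bhlhe40 (DEC1), a repressor at E-boxes that is also a HIF target, read 10.02, 10.02, 10.56 and 10.63 on mutant arrays 1 to 4 and 10.87 to 10.95 on the control arrays. It was thus lower on all 4 mutant arrays, with arrays 1 and 2 far below arrays 3 and 4 (log2 difference -0.60, SE 0.136, limma adjusted p = 0.0261). Its size depended on these arrays, at -0.32 without mutant arrays 1 and 2 (limma adjusted p = 0.0236) and -0.89 without 3 and 4 (limma adjusted p = 0.000410), and leaving out any 1 of mutant arrays 1 and 2 or the 4 control arrays lost the call (limma adjusted p from 0.0521 to 0.0744).

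Csnk1e, a kinase that marks PER proteins for degradation, read 9.76 to 9.85 on the mutant arrays and 9.94 to 10.14 on the control arrays. It fell with no overlap (log2 difference -0.27, SE 0.0586, limma adjusted p = 0.0218), but missed the threshold once mutant array 3, control array 2 or control array 3 was left out (adjusted p between 0.0560 and 0.0697 by limma). Btrc, an F-box protein that recognises phosphorylated PER, rose by the smallest margin (10.1 ± 0.0411 against 9.94 ± 0.0559, SD, n = 4 each; log2 difference 0.19, limma adjusted p = 0.0493) and lost its call with the block (limma adjusted p = 0.0720), with arrays centred on their medians (0.0520) and without any 1 array (0.0592 to 0.132). Bhlhe41, Nr1d2, Ciart and Usp2, picked after their values were seen, did not pass in the fit reported without the block (limma adjusted p from 0.119 to 0.633). Bhlhe41 passed once control array 4 was left out (-0.37, limma adjusted p = 0.0114). Usp2 passed in 1 of 8 fits without 1 array (limma adjusted p = 0.0329). Bhlhe41 (DEC2) was lower in all 4 same-number differences and Nr1d2 (REV-ERB beta) higher in all 4, with log2 differences of -0.27 and 0.18.

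Of 13 measured genes known as clock outputs, 1 fell and 0 rose without the block, against 4.64% and 2.59% of all genes, a share near the background. At an unadjusted p under 0.05, 2 were lower and 5 higher, against 2193 and 2158 of all 19936 genes. With the block 1 fell and 2 rose, against 5.27% and 3.04% of all genes. The median log2 difference was 0.02 against 0.03 for all genes. Por and Cdkn1a had no probe set naming them alone. Nampt, the enzyme that sets the rhythm of NAD, fell with no overlap (11.2 ± 0.0906 against 11.5 ± 0.0819, SD, n = 4 each; log2 difference -0.27, limma adjusted p = 0.0335). That call was lost without any 1 array except mutant array 4 (limma adjusted p from 0.0570 to 0.0892). Slc9a3, the sodium-proton exchanger of the proximal tubule, and Alas1, an enzyme of haem synthesis that DBP and TEF are known to activate, were higher in all 4 same-number differences. They passed with the block (log2 differences 0.30 and 0.33, limma adjusted p = 0.0334 and 0.0386) and not in the fit reported without it (0.0609 and 0.0906). Without the block Slc9a3 passed in 1 of 8 fits without 1 array (limma adjusted p = 0.0132). Alas1 did so with array weights (limma adjusted p = 0.0325) and without mutant array 1 (0.0219), control array 4 (0.0458) or mutant arrays 1 and 2 (0.0450). Leaving out any 1 number lost the blocked call of Slc9a3 (limma adjusted p from 0.0513 to 0.147), and leaving out number 2, 3 or 4 that of Alas1 (limma adjusted p from 0.0822 to 0.162).

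Glucocorticoid, temperature and handling signals also set clock genes, and their genes were read beside them. Of 10 glucocorticoid-induced genes 2 fell and 0 rose, against 4.64% and 2.59% of all genes (unadjusted 3 and 0, against 2193 and 2158 of all 19936 genes), with a median log2 difference of -0.03 against 0.03 for all genes. The 2 were Ddit4, an mTOR brake that is also induced by HIF, at -0.56 (limma adjusted p = 0.0312), and the metallothionein gene Mt2 at -0.51 (limma adjusted p = 0.0279). Ddit4 was lost without mutant array 3 or control array 2, 3 or 4 (0.0517 to 0.0951) and Mt2 without mutant array 2 or control array 1, 2 or 3 (0.0702 to 0.0835). By sign, 4 of the 10 genes were higher and 6 lower. Fkbp5, Sgk1 and Klf9, picked after their values were seen, did not pass (log2 differences 0.03, -0.04 and 0.21). All of them had array 1 the lowest and array 4 the highest in both groups, as Nfil3 did. Fkbp5 read 9.24, 10.01, 10.28 and 10.57 on mutant arrays 1 to 4 and 9.69, 9.95, 9.91 and 10.43 on control arrays 1 to 4. Ddit4 and Mt2 did not have that pattern. Of 8 temperature-responsive genes 1 fell and 0 rose, against the same 4.64% and 2.59% of all genes. Unadjusted, the counts were 2 and 0, against 2193 and 2158 of all 19936 genes. The median was -0.07, and 0.03 for all genes. The gene that fell was Rbm3, an RNA-binding protein induced by cold (11.06 ± 0.103 against 11.42 ± 0.115, SD, n = 4 each, limma adjusted p = 0.0157). It was read by the highest of its 3 probe sets. Its call held in 20 of 24 other settings at this threshold, with a highest limma adjusted p of 0.134. Leaving out mutant arrays 3 and 4 was among the settings that lost it (limma adjusted p = 0.0715). The heat shock gene Hspb1, at -0.56, passed with the block (limma adjusted p = 0.00595) and not without it (0.130), except when control array 2 was left out (-0.73, limma adjusted p = 0.0420). Of 10 immediate early genes 0 passed the limma test in the fit reported without the block. Unadjusted, 1 was lower and 0 higher, against 2193 and 2158 of all 19936 genes, with a median of 0.02. Btg2 passed with the block, at -0.28 (limma adjusted p = 0.0476), where 5.27% of all genes fell. The blocked call of Btg2 was lost without arrays of number 1, 2 or 3 (limma adjusted p from 0.126 to 0.188) and with quantile normalization added (limma adjusted p = 0.0512). Without the block Btg2 passed when mutant array 4 was left out (-0.36, limma adjusted p = 0.0239) or mutant arrays 3 and 4 were (-0.34, limma adjusted p = 0.0478). Averaged over each list, the glucocorticoid genes ran from 10.7 to 11.5 on the mutant arrays and from 11.1 to 11.4 on the control arrays. The temperature genes ran from 10.3 to 10.6 and from 10.5 to 10.9.

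Vessel markers were lower in the arrays labelled mutant. Of 18 cell type markers 3 fell, Pecam1 and Cdh5 of endothelium and Acta2 of smooth muscle, with log2 differences of -0.70, -0.84 and -0.70 (limma adjusted p = 0.000494, 0.000272 and 0.00651), and 0 rose in the limma fit without the block, where 4.64% of all genes fell and 2.59% rose. At an unadjusted p under 0.05, 6 markers were higher and 3 lower, against 2158 and 2193 of all 19936 genes. With the block Slc12a1 and Slc12a3, salt transporter genes of the thick ascending limb and distal tubule, also rose (limma adjusted p = 0.0456 and 0.0341), where 3.04% of all genes rose. The part that vessel cells had in the clock gene values was not tested.

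By Pearson correlation over the 8 arrays, the 5 genes outside the clock set most like Dbp were Mir363, Mt4, Slc22a26, Catsperz and C9 (r from 0.971 to 0.977). Of these, all but Slc22a26, an organic anion transporter gene, lay at or below the 25.6th percentile of all genes by mean value. The 5 most like Arntl were Tpp2, Hnrnpab, Appbp2, Tmeff1 and Agfg1 (r from 0.976 to 0.990), and their log2 differences between groups were small, from -0.23 to -0.05. These are the highest values among 19936 genes over 8 arrays that share the group difference and the array numbers, and they are a description.

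**Figure D4:**
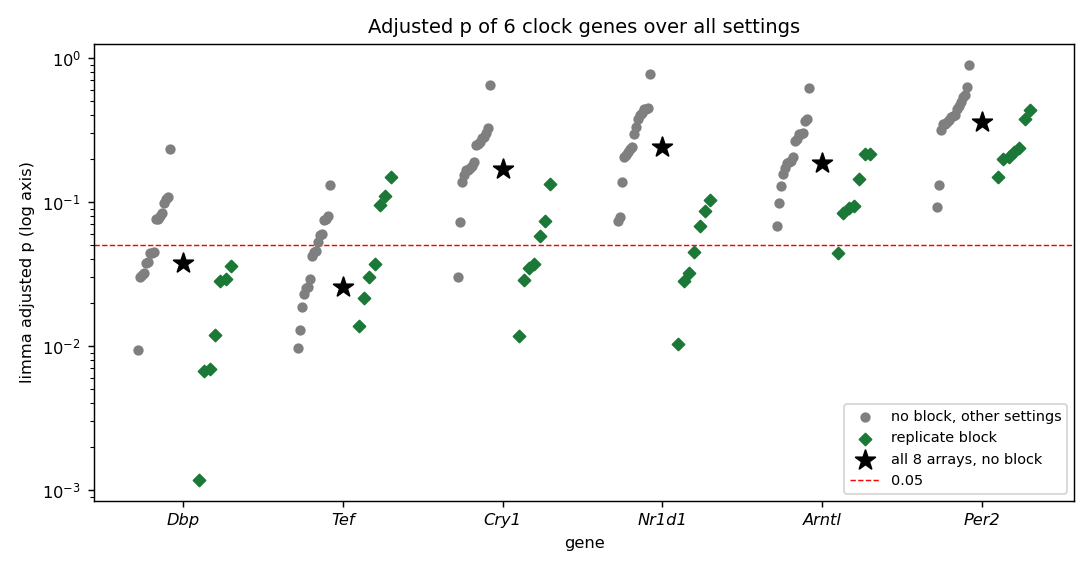
Limma adjusted p (y axis, log scale) of 6 clock genes (x axis) with all 8 arrays and no block (star), under the other settings without the block (grey circles) and under settings with the block (green diamonds); the dashed line is at 0.05. Dbp lies below the line in every blocked fit shown, and its value of 0.0375 without the block is crossed by other settings in both directions; Tef lies on both sides of the line with and without the block.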

How the data were processed

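The authors' deposited table held log2 expression values of 35556 probe sets on 8 Affymetrix arrays, from 1.92 to 14.66, 1 array for each mouse. Per the labels' protocols RNA was labelled with biotin; limma is named, without a version, in the submitters' processing notes. The sources used here do not state the background correction, summarization, normalization or build. The number of arrays limits the precision; the median SE of a log2 difference was 0.0718.

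Probe sets were named from the platform's annotation, updated to the GRCm38.p6 gene table: 21789 named 1 gene, 1621 several, and 12146 were unlisted. The probe set with the highest mean was kept for each gene, giving 19936 genes. Groups were compared with limma 3.58.1 in R 4.3.3 (lmFit, eBayes, two-sided), with Benjamini-Hochberg adjustment over all genes and calls at an adjusted p under 0.05. Single genes were also tested by exact permutation of 4 against 4 values. The fits were tested on simulated data. Members and lists were chosen with earlier results of these data known.

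Named genes were the 10 members, other clock genes that passed and up to 3 that passed from each further list. The 5 genes most correlated with Dbp and with Arntl were named too. Hlf, Nfil3, Bhlhe41, Nr1d2, Ciart, Usp2, Slc9a3, Alas1, Fkbp5, Sgk1, Klf9, Hspb1, Btg2 and the markers were named after their values were seen. Fits with array numbers as blocks were planned as an alternative, though the labels give no meaning to the numbers. Over all genes, the deviations of arrays 1, 2, 3 and 4 from their group means correlated between groups at 0.138, 0.153, 0.295 and 0.175. These correlations were read beside the fits and were not the ground for the blocks. Arrays of different numbers correlated from -0.193 (mutant array 2 with control array 3) to 0.111 (mutant array 2 with control array 1). Deviations within a group cancel out, so these values depend on each other. Alternatives were other normalizations, filters, variance models, weights, adjustment over all probe sets, a stricter threshold, the replicate block, and leaving out arrays.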

Additional observations from a re-analysis of the deposited data

Results flagged for a closer look

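Among 66 groups of 4 arrays, 2 for each of 33 genes, 3 had an array whose gap to its nearest neighbour passed Dixon's 95% critical value; chance gives about 1 in 20. Csnk1e read 9.94 on control array 1 against 10.11 to 10.14 on the other control arrays. Bhlhe41 read 6.96 on control array 4 against 7.34 to 7.42 on the others. Acta2 read 11.11 on control array 4 against 11.23 to 11.26 on the others. None of the 10 clock genes was among them.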

How the results depend on the processing

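The 10 clock genes kept their direction in 243 of 250 settings by gene. The 243 include settings in which no direction could turn, because the log2 difference stayed the same by construction. Those settings changed only the filter, the variance model, the block, the adjustment or the threshold. Averaging over probe sets was another, since each of the 10 genes had 1. Only other normalizations, array weights and leaving out arrays could test the direction. The 7 reversals were of genes that passed nowhere: Clock at -0.00069 without control array 1, -0.027 without mutant arrays 3 and 4 and -0.0027 in the blocked fit without arrays 1; Cry2 at 0.0013 without mutant array 1 and 0.014 in that blocked fit; Per1 at 0.027 and 0.024 in the same 2 settings. Leaving out 1 array, these ran from -0.00069 to 0.094 (Clock), -0.083 to 0.0013 (Cry2) and -0.21 to 0.027 (Per1). Ciart turned to -0.037 in the blocked fit without arrays 2 and Nfil3 to 0.018 without mutant arrays 1 and 2. Clock genes passing numbered 2 in the fit reported, 4 with the replicate block, also with quantile normalization or with trend and robust eBayes added to it (both chosen after seeing the data), 1 with array weights (Tef), and 0 when adjusted over all probe sets (unadjusted 4), at an adjusted p under 0.01 or without mutant arrays 1 and 2 (unadjusted 2). Leaving out 1 array gave 0 to 2 of them, and 1 to 4 in blocked fits without 1 number. Other clock genes passing numbered 3, and 1 over all probe sets, 0 at 0.01 (unadjusted 8) and 1 without mutant arrays 1 and 2; leaving out 1 array gave 0 to 2 and blocked fits without 1 number 0 to 3. Over all genes 1442 passed, 602 at 0.01 and 2173 with the block and trend and robust eBayes; leaving out 1 array gave 902 to 1368 and blocked fits without 1 number 485, 671, 1127 and 1204. The cause of these changes was not tested, except that leaving out arrays leaves fewer samples and that all probe sets are more tests. No value says which arrays are at fault, and no background reading shows how much low genes are compressed.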
